A study of Homo sapiens with 9 samples.

Results

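The genes described here are 10 of the 58735 listed in the count table: P4HA1, P4HA2, PLOD1, PLOD2, LOX, LOXL1, LOXL2, LOXL4, PXDN and TGM2, which encode enzymes that hydroxylate or cross-link collagen. They were picked by name, with earlier results of these same libraries known. Their levels and differences are therefore given as a description, without p-values, and whether a member was called differentially expressed is not evidence about the set. RNA was sequenced from 786-0 cells, a line derived from clear cell renal cell carcinoma (ccRCC), in 3 groups of 3 replicates. The control group was untreated 786-0 WT cells, the PT2385 group was WT cells given 10 μM PT2385 (an antagonist that keeps HIF2α from pairing with its partner ARNT) for 48 h, and the KO group was a HIF2α knockout of the same line. All 3 groups were kept at 21% oxygen for 48 h and share the defective VHL of 786-0 and its loss of functional HIF1α, so HIF2α was constitutively expressed in the WT cells. Whether the controls received a vehicle, how the knockout was made and whether it was 1 clone are not given in the sources used here. The PT2385 and KO groups are compared with the same control libraries, so the values of the 2 comparisons are set side by side and are not independent.

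Collagen chains are modified both inside and outside the cell. In the endoplasmic reticulum, prolyl 4-hydroxylases hydroxylate proline, which lets the triple helix hold together at body temperature, and lysyl hydroxylases hydroxylate lysine. After secretion, the copper enzymes of the lysyl oxidase family oxidise lysine and hydroxylysine so that neighbouring collagens become covalently linked. Peroxidasin and transglutaminases form other kinds of covalent bond. Several of these genes are known targets of hypoxia-inducible factors, which bind DNA at a short core motif, ACGTG or GCGTG.

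That core motif was searched on both strands in the 250 bases before the RefSeq transcription start (GRCh38.p14), a property that played no part in choosing the genes. Windows were at hand for 8 of the 10 members (10 windows in all), and TGM2 and LOXL2 were not searched. PLOD1, PLOD2, LOX, P4HA1 and PXDN held at least 1 match, while P4HA2, LOXL1 and LOXL4 held none. Among 35116 promoter windows of the same length, 43.2% held a match, 18.5% held ACGTG and 32.2% held GCGTG. A match is only a run of letters, and no binding was measured. The stretches below are shown because they hold the matches of genes whose levels are described next. Each is written 5′ to 3′ along the strand of its gene, with the motif in capitals (CACGT is ACGTG read on the other strand).

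P4HA1, chr10:73096932-73096961, minus strand: gatcgagctCACGTagcgagggctgcagtc
PLOD1, chr1:11934640-11934669, plus strand: cgggggaggGCGTGgaggggcggggtggtg
PLOD1, chr1:11934683-11934712, plus strand: gggcccagtGCGTGgcagcgggacctgcgg
PLOD2, chr3:146161377-146161406, minus strand: agaagcgctGCGTGagcctccaCACGTagc
PLOD2, chr3:146161310-146161339, minus strand: acagtccagACGTGgggcccaggagggcga
LOX, chr5:122078281-122078310, minus strand: actttgcaaACGTGccagaaagtttaaaat
PXDN, chr2:1744518-1744547, minus strand: acagctgggACGTGggccgcggccgggcgg

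In these stretches the matches of PLOD2, P4HA1 and LOX fall within exons that the GENCODE annotation places upstream of the RefSeq start. Of the PLOD1 window, 23 bases lie within its exons, whereas the whole searched window of PXDN lies outside its annotated exons. Among the genes without a match, all 250 bases searched for P4HA2 and for LOXL1 lie within their own annotated exons, and those of LOXL4 lie outside. LOX held ACGTG at 4 positions in 1 of its 3 windows, and the one printed is the nearest to the start of that window. PLOD2 held 3 positions of either motif. Of all promoter windows, 7.76% held 3 or more positions of ACGTG or GCGTG, and 3.22% held 4 or more. The other 2 windows of LOX overlap each other and held the same 1 ACGTG and 1 GCGTG.

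Libraries held between 11881000 and 14730081 counts, and the TMM scaling factors (edgeR's correction of library size) ran from 0.988 to 1.02. EPAS1, which encodes HIF2α, stood at 256 ± 20.6 CPM (reads per 1000000 reads of TMM-scaled library size, mean ± SD, n = 3) in control, 238 ± 15.3 in PT2385 and 22.1 ± 2.61 in KO, a log2 fold change of -3.52 (SE 0.0926, edgeR quasi-likelihood test with Benjamini-Hochberg adjustment, adjusted p = 2.15e-09) that left 8.73% of the transcript. All 6 genes listed as renal epithelial markers (PAX8, PAX2, CDH6, KRT8, KRT18 and VIM) were counted. Their summed levels were 5827 to 6264 CPM in control, 5709 to 6329 CPM in PT2385 and 5848 to 6221 CPM in KO. VIM, which is not specific to epithelial cells, made up most of these sums, averaging 4733, 4396 and 4257 CPM in control, PT2385 and KO. The sums therefore say little of the other markers, and single markers differed between the groups. PAX2 averaged 34.2, 25.3 and 13.7 CPM, CDH6 100.2, 262 and 204 CPM, and KRT18 161, 223 and 289 CPM in control, PT2385 and KO, and their part in the results was not tested. The 4 leukocyte and 4 endothelial markers had at most 3 counts in any library, and 2 of each set were at 0 in all 9. Of the 6 fibroblast and pericyte markers, COL1A2, COL3A1 and DCN were at 0 in all 9 libraries. The summed level of the 6 was 8.74 to 10.1 CPM in control, 10.6 to 13.2 CPM in PT2385 and 5.21 to 7.04 CPM in KO. Single markers went different ways here too. In control, PT2385 and KO, COL1A1 averaged 5.57, 6.95 and 2.55 CPM, LUM 1.44, 2.42 and 3.21 CPM, and PDGFRB 2.38, 2.26 and 0.0979 CPM. The part of these markers in the results was not tested.

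Together the 10 members took 0.200% to 0.205% of all counts in the control libraries, 0.134% to 0.139% in PT2385 and 0.132% to 0.147% in KO. In bulk RNA, fewer cells expressing a gene and less RNA per cell cannot be told apart. LOXL2 and TGM2 had the highest levels per length in control. In CPM per kilobase of merged exon, the control order was LOXL2 at 98.9, TGM2 at 73.1, P4HA1 at 30.2, PLOD1 at 30.01, PLOD2 at 27.1, P4HA2 at 18.04, LOXL1 at 3.93, LOX at 1.70, PXDN at 1.22 and LOXL4 at 0, and only the replicates of P4HA1 and PLOD1 overlapped as neighbours. In PT2385 cells LOXL2 led at 59.6, PLOD1 at 36.8 and TGM2 at 35.7 overlapped, and so did P4HA1 at 21.1 and PLOD2 at 18.4. In KO cells TGM2 at 56.8 stood above LOXL2 at 40.4, PXDN at 5.68 had moved above LOX at 2.52 and LOXL1 at 1.97, and the last 2 overlapped. The exon length used for division matters for this order: over the canonical transcript alone PLOD2 reached 105 CPM per kilobase in control, after LOXL2 at 159 and TGM2 at 117, and P4HA2 at 40.2 passed P4HA1 at 34.1. On that scale PLOD2 came next after LOXL2 in PT2385, at 71.1, and next after TGM2 in KO, at 74.5.

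**Figure D1:**
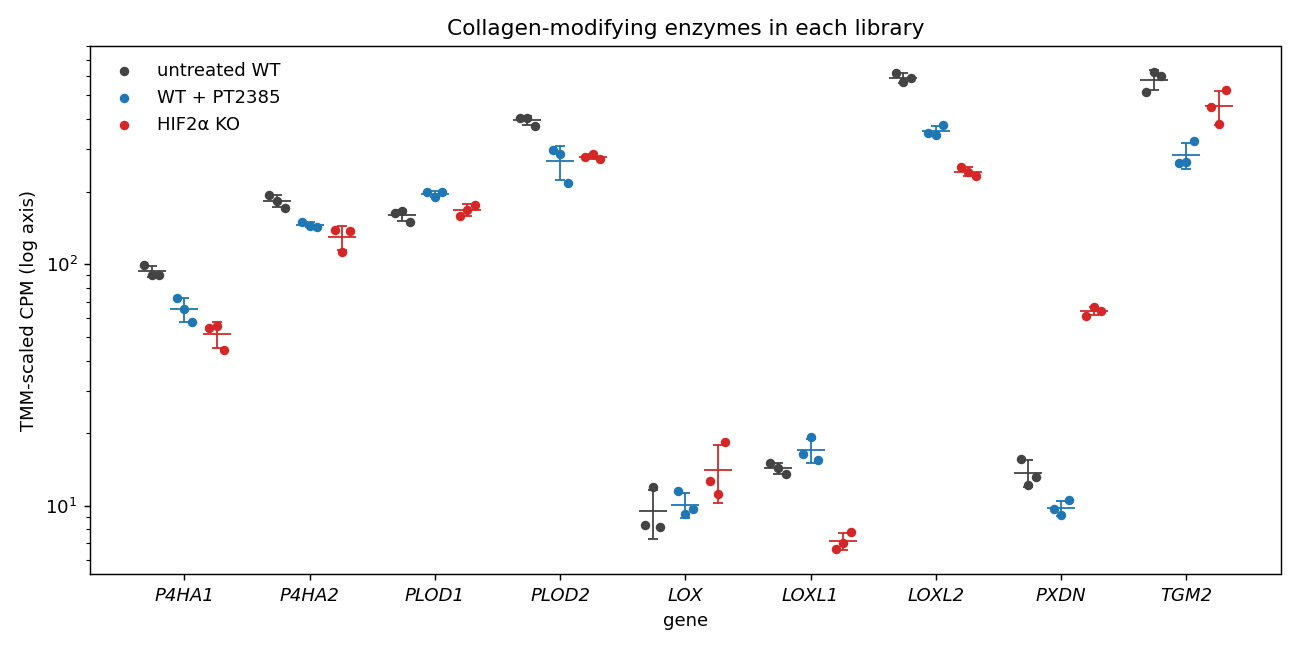
Level in every library of the 9 enzyme genes that had counts, in CPM on a log axis, with 1 point per replicate and a bar at the mean of each group of 3. LOXL2 separates the 3 groups, from 592 CPM in control to 357 CPM in PT2385 and 242 CPM in KO. PXDN is highest in KO, at 61.3 to 66.3 CPM. LOXL4 has no counts in any library and is not drawn.

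The prolyl 4-hydroxylase alpha subunits were lower in both groups than in control. P4HA1 (ENSG00000122884, GRCh38 chr10:73007217-73096974, minus strand) encodes the catalytic alpha subunit that pairs with protein disulphide isomerase. Its level was 99.4, 90.3 and 90.7 CPM in control, 72.9, 65.3 and 57.9 CPM in PT2385 and 54.3, 55.4 and 44.2 CPM in KO. The 3 groups did not overlap, and every KO library was under every PT2385 library. The log2 fold change against control was -0.52 (SE 0.0873) in PT2385 and -0.85 (SE 0.0890) in KO, and that of KO against PT2385 was -0.35 (SE 0.110). The last call was lost with RLE scaling, with 10 counts required in every library and when any 1 library other than PT2385 replicate 3 was left out, with values of -0.43 to -0.26 over the 6 omissions.

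P4HA2 (ENSG00000072682, chr5:132190147-132295315, minus strand), the second catalytic alpha subunit, took a shallower course. It measured 193, 184 and 172 CPM in control, 150, 144 and 143 CPM in PT2385 and 139, 112 and 137 CPM in KO. Each PT2385 and KO library lay below the lowest control library. Its log2 fold changes were -0.33 (SE 0.0633) in PT2385 and -0.49 (SE 0.0865) in KO, and the PT2385 call was lost without control replicate 2 (-0.32) or PT2385 replicate 2 (-0.33). Between KO and PT2385 the difference of -0.17 (SE 0.0890) was not called. P4HA1 reads numbered 0.512 ± 0.0188 per P4HA2 read in control, 0.448 ± 0.0417 in PT2385 and 0.402 ± 0.0865 in KO (mean ± SD, n = 3), and the KO replicates, from 0.322 to 0.494, overlapped both other groups, whereas PT2385 lay below control without overlap.

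The lysyl hydroxylases parted. PLOD2 (ENSG00000152952, chr3:146035139-146163725, minus strand) hydroxylates the telopeptide lysines that give rise to the stable pyridinoline cross-links. It measured 403, 404 and 375 CPM in control, 296, 286 and 218 CPM in PT2385 and 277, 287 and 274 CPM in KO. All treated and knockout libraries were below all control libraries, and PT2385 replicate 3 was the lowest. The log2 fold changes against control were -0.57 (SE 0.0995) in PT2385 and -0.49 (SE 0.0581) in KO. KO and PT2385 overlapped, with a difference of 0.06 (SE 0.106) that was not called and became -0.06 without PT2385 replicate 3.

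PLOD1 (ENSG00000083444, chr1:11934205-11975538, plus strand), which hydroxylates lysines within the helix, was the single member called higher with PT2385. It was at 163, 166 and 150 CPM in control, 199, 190 and 198 CPM in PT2385 and 158, 169 and 177 CPM in KO. PT2385 libraries all lay above the other 2 groups, and control and KO overlapped. The log2 fold change was 0.29 (SE 0.0615) in PT2385, a call lost without control replicate 3 (0.25) or PT2385 replicate 2 (0.31), and 0.08 (SE 0.0669, not called) in KO. KO against PT2385 gave -0.23 (SE 0.0682), and this call was lost with DESeq2, with no filter, with 10 counts required in every library and in 5 of 6 omissions of 1 library, all but that of KO replicate 3, with values of -0.27 to -0.18 over the 6.

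Set against each other within a library, the lysyl hydroxylases changed balance. PLOD1 reads per PLOD2 read were 0.405, 0.410 and 0.400 in control, 0.673, 0.664 and 0.911 in PT2385 and 0.570, 0.587 and 0.646 in KO. These ratios do not depend on library scaling. Control replicates sat within a narrow band, all PT2385 ratios were above all KO ratios, and both groups were above control. PT2385 replicate 3 had both the highest ratio and the lowest PLOD2 level.

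**Figure D2:**
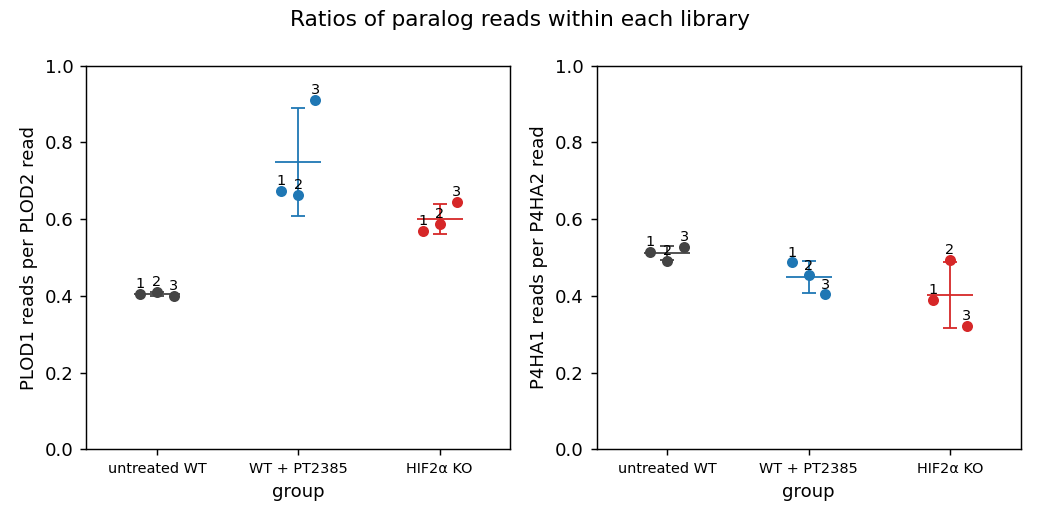
Ratios of read counts within each library, by group, with 1 point per replicate, its replicate number and a bar at the mean of 3. PLOD1 reads per PLOD2 read averaged 0.405 in control, 0.749 in PT2385 and 0.601 in KO. P4HA1 reads per P4HA2 read were below control in all 3 PT2385 libraries, while KO overlapped both groups.

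Among the lysyl oxidases LOXL2 carried nearly all reads. Of the reads of LOX, LOXL1, LOXL2 and LOXL4 together, it averaged 96.1% in control, 92.9% in PT2385 and 91.9% in KO. LOXL2 (ENSG00000134013, chr8:23296897-23425328, minus strand) encodes a secreted oxidase with scavenger receptor domains that acts on collagen IV. It was at 620, 567 and 589 CPM in control, 349, 344 and 378 CPM in PT2385 and 253, 240 and 233 CPM in KO. The 3 groups were fully separated, in the order control, PT2385, KO. Its log2 fold change was -0.73 (SE 0.0583) in PT2385 and -1.28 (SE 0.0608) in KO, which is 2.43-fold lower, and KO lay below PT2385 by -0.56 (SE 0.0662). Of its exon bases, 120 are shared with ENTPD4 on the same strand.

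LOXL1 (ENSG00000129038, chr15:73925989-73952137, plus strand), an oxidase best known for elastin, was low, and lowest in KO. Control libraries held 15.02, 14.3 and 13.6 CPM, PT2385 libraries 16.4, 19.3 and 15.6 CPM, and KO libraries 6.63, 7.04 and 7.81 CPM. PT2385 lay above control without overlap, yet its log2 fold change of 0.25 (SE 0.116) was not called. In KO it was lower, by -0.98 (SE 0.127) against control and -1.25 (SE 0.137) against PT2385. LOXL1 shares 335 exon bases with LOXL1-AS1 on the other strand, which had 430 counts over the 9 libraries against 1501 for LOXL1, and whether counting used strand is not given.

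LOX (ENSG00000113083, chr5:122063195-122078413, minus strand), the founding member of the family, held only 98 to 269 counts per library. Its levels were 8.31, 12.01 and 8.16 CPM in control, 11.5, 9.23 and 9.71 CPM in PT2385 and 12.7, 11.2 and 18.4 CPM in KO. KO replicate 3 was highest, and each pair of groups overlapped. The difference of 0.09 (SE 0.168) in PT2385 was not called and was just below 0 in 3 of 6 omissions of 1 library. In KO it was 0.59 (SE 0.209), not called, although it was called without control replicate 2 (0.78), without KO replicate 2 (0.73), with DESeq2, with no filter on low counts and with all 9 libraries in a joint model. KO against PT2385 gave 0.48 (SE 0.189), which was not called, but was called without KO replicate 2 (0.63) and with no filter. LOX shares 138 exon bases with SRFBP1, on the opposite strand, which had 4725 counts over the 9 libraries against 1343 for LOX. LOXL4 (ENSG00000138131, chr10:98247690-98268194, minus strand), a further family member, had 0 counts in all 9 libraries, which allows up to 3 counts, or 0.206 to 0.252 CPM, in any of them.

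Peroxidasin showed the largest difference of the set, being higher in KO and lower with PT2385 than in control. PXDN (ENSG00000130508, chr2:1631887-1744852, minus strand) forms the sulfilimine bonds that join collagen IV molecules in basement membranes. It was at 15.7, 12.3 and 13.2 CPM in control, 9.72, 9.15 and 10.6 CPM in PT2385 and 61.3, 66.3 and 64.4 CPM in KO. KO libraries were far above both other groups, and each PT2385 library was below each control library. The log2 fold change was 2.23 (SE 0.0983) in KO against control, or 4.70-fold, and 2.70 (SE 0.0922) in KO against PT2385, or 6.50-fold. With PT2385 it was -0.49 (SE 0.129), and that call was weak: it was lost with DESeq2, with library-size scaling and without any of the control replicates, PT2385 replicate 1 or PT2385 replicate 2, with values of -0.56 to -0.38 over the 6 omissions.

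TGM2 (ENSG00000198959, chr20:38127385-38166578, minus strand) encodes the widespread tissue transglutaminase, which joins glutamine to lysine side chains. It was at 518, 625 and 601 CPM in control, 262, 265 and 324 CPM in PT2385 and 448, 381 and 525 CPM in KO. PT2385 libraries lay below all others, while the highest KO library exceeded the lowest control library. The log2 fold change was -1.04 (SE 0.0879) with PT2385, or 2.06-fold lower, the largest decrease among the members in that comparison. In KO it was -0.35 (SE 0.108), a call lost without control replicate 2 (-0.31), control replicate 3 (-0.33), KO replicate 1 (-0.34) or KO replicate 2 (-0.24). KO stood above PT2385 by 0.67 (SE 0.117). Of the exon bases of TGM2, 396 are shared with RPRD1B on the opposite strand.

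**Figure D3:**
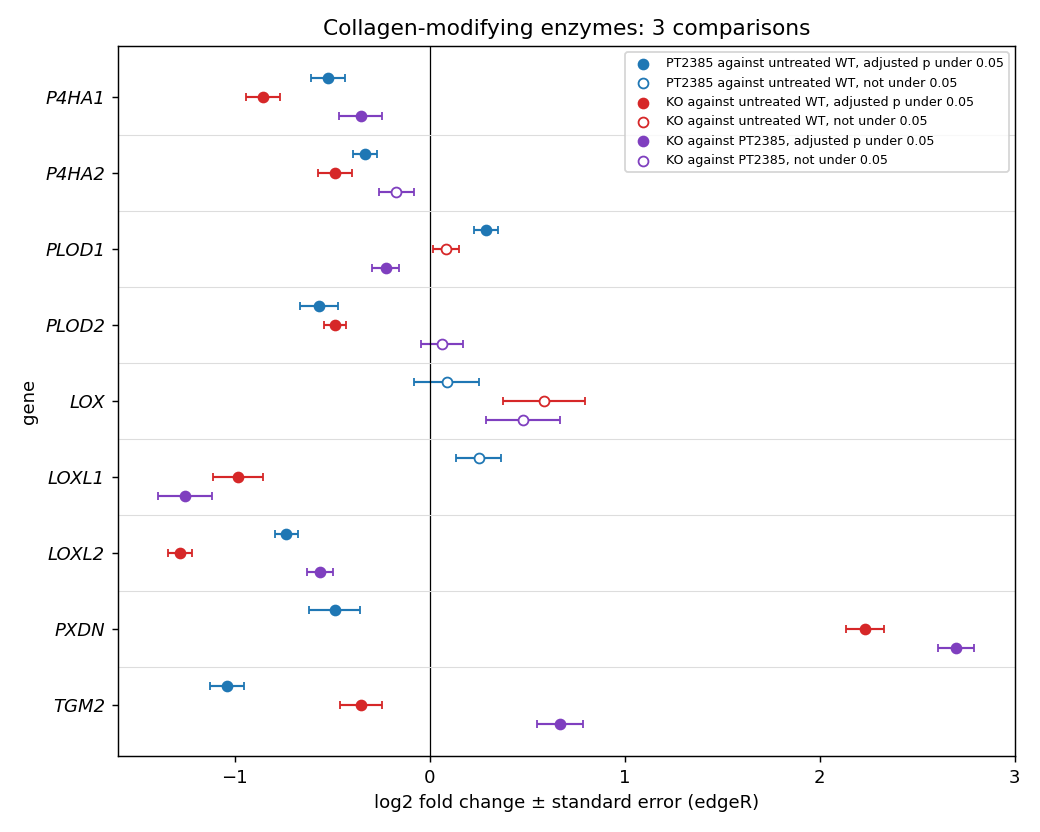
Log2 fold change of each tested member with its standard error, for PT2385 against control, KO against control and KO against PT2385, from separate edgeR fits of 3 against 3 libraries. Filled symbols mark adjusted p under 0.05. In KO against control PXDN stands at 2.23, and LOXL2, LOXL1 and P4HA1 lie at -1.28, -0.98 and -0.85. With PT2385 the lowest values are TGM2 at -1.04 and LOXL2 at -0.73.

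Counting the members by comparison, LOXL4 could not be tested and the other 9 passed the filter on low counts each time. With PT2385, 1 was called higher and 6 lower, where 7.70% of the 15089 genes tested were called, 3.08% higher and 4.62% lower. In KO against control, 1 was called higher and 6 lower, where 30.1% of 15192 genes were called, 14.7% higher and 15.4% lower. In KO against PT2385, 2 were called higher (PXDN and TGM2) and 4 lower (LOXL2, LOXL1, P4HA1 and PLOD1), where 18.8% of 15402 genes were called, 8.47% higher and 10.3% lower. Libraries of the groups did not overlap for 8 members with PT2385, 6 in KO against control and 7 in KO against PT2385, beside 25.9%, 44.0% and 35.1% of all genes tested. The median log2 fold change of the 9 was -0.49, -0.49 and -0.17 in the same order, and that of all genes tested was within 0.01 of 0 each time. With DESeq2, another test for counts, 6, 8 and 5 members were called, beside 8.06%, 26.1% and 17.0% of the genes it tested. Nothing is read from these counts, since the members were chosen with the comparisons known. Without PT2385 replicate 2 the 7 calls of the PT2385 comparison became 4, with P4HA2, PLOD1 and PXDN no longer called.

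The same steps of collagen biosynthesis need other proteins, and 33 such genes were listed by their textbook roles: the beta subunit and another alpha subunit of prolyl 4-hydroxylase, the prolyl 3-hydroxylase complex, glycosyltransferases, chaperones, propeptide proteases, the remaining cross-linking enzymes and the copper pump that loads lysyl oxidases. With PT2385, 25 were tested, and 3 rose and 0 fell (12%, beside 7.70% of all genes tested). Of all genes tested, 3.08% were called higher and 4.62% lower. DESeq2 gave 3 higher and 0 lower among the 20 of the list that it tested. With so few genes, nothing is read from the lack of lower calls. SERPINH1, the collagen chaperone HSP47, rose from 58.2, 63.5 and 61.9 CPM in control to 81.1, 89.6 and 88.7 CPM in PT2385 (log2 fold change 0.49, SE 0.0693, adjusted p = 7.32e-04, higher in 3 of 3 libraries). P3H4, a scaffold of the lysyl hydroxylation complex, rose by 0.37 (SE 0.0848, adjusted p = 0.0201), and ADAMTS3, a procollagen N-proteinase, by 0.32 (SE 0.0838, adjusted p = 0.0402). The last 2 were weakly held, since P3H4 was no longer called without control replicate 1 (0.31), control replicate 2 (0.40) or PT2385 replicate 2 (0.34), nor ADAMTS3 without any of those (0.23, 0.37 and 0.28) or without control replicate 3 (0.36).

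P4HB, the beta subunit that both P4HA1 and P4HA2 need and that also works as protein disulphide isomerase, was abundant and did not pass the test in any comparison. It averaged 877 ± 25.6 CPM in control, 888 ± 11.1 CPM in PT2385 and 828 ± 26.3 CPM in KO (mean ± SD, n = 3). Its KO libraries, at 798 to 847 CPM, all lay below control at 853 to 904 CPM and PT2385 at 878 to 900 CPM. Its log2 difference from control was 0.01 (SE 0.0497, adjusted p = 0.918) with PT2385 and -0.07 (SE 0.0545, adjusted p = 0.357) in KO. PLOD3, the lysyl hydroxylase that also adds glucose, and the galactosyltransferase COLGALT1 were likewise not called in any of the 3 comparisons.

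In KO against control, 24 of the 33 were tested, 7 rose and 4 fell (45.8%, beside 30.1% of all genes tested). MIA3 (TANGO1), which loads procollagen into large transport carriers, rose from 89.4, 93.1 and 88.8 CPM to 203, 207 and 182 CPM (1.14, SE 0.0659, adjusted p = 3.43e-07). Propeptide proteases moved both ways, with 3 higher and 1 lower. ADAMTS3 rose by 0.60 (SE 0.0797, adjusted p = 2.04e-04) and ADAMTS2, the main procollagen I N-proteinase, by 1.19 (SE 0.219, adjusted p = 0.00169). Of the BMP1-like proteinases, TLL1 fell by 1.39 on the log2 scale (SE 0.312, adjusted p = 0.00518) and TLL2 rose by 0.62 (SE 0.172, adjusted p = 0.0181, 0.0125 to 0.0725 over its alternatives). The call of TLL2 was lost without control replicate 1 (0.53), control replicate 3 (0.58) or KO replicate 2 (0.58). TLL1 and the peroxidasin homologue PXDNL (1.51, SE 0.379, adjusted p = 0.00906) were scarce, with PXDNL at 0.671 to 1.33 CPM in control and 1.88 to 3.63 CPM in KO. Within the prolyl 3-hydroxylase group, PPIB (cyclophilin B) fell by 0.49 (SE 0.0661, adjusted p = 2.36e-04) and P3H3 by 0.25 (SE 0.0612, adjusted p = 0.0105).

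Among the chaperones and in copper delivery, calls went both ways as well. FKBP10, a chaperone with prolyl isomerase activity, rose by 0.34 (SE 0.0692, adjusted p = 0.00349) and the copper transporter ATP7A by 0.44 (SE 0.119, adjusted p = 0.0170). SERPINH1 fell by 0.24 (SE 0.0665, adjusted p = 0.0171), the direction opposite to PT2385. Omission of single libraries left FKBP10 called. ATP7A was not called without control replicate 2 (0.41), control replicate 3 (0.40), KO replicate 1 (0.41) or KO replicate 2 (0.36), SERPINH1 without control replicate 2 (-0.22), control replicate 3 (-0.24) or KO replicate 1 (-0.23), and P3H3 without control replicate 2 (-0.23) or KO replicate 1 (-0.22).

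The direct comparison of KO with PT2385 tests these differences. Of 24 genes, 4 were higher and 7 lower in KO (45.8%, beside 18.8% of all genes tested). SERPINH1 was lower in KO, at 50.4, 52.4 and 51.0 CPM (-0.76, SE 0.0714, adjusted p = 4.70e-05), as were PPIB (-0.67, adjusted p = 1.32e-04), P3H4 (-0.60, adjusted p = 0.00178) and P3H3 (-0.46, adjusted p = 0.00125). P3H2 was lower as well, at -0.22 (adjusted p = 0.0495). In all, 4 of the 6 genes listed under prolyl 3-hydroxylation were called lower in KO, beside 10.3% of all genes tested. P3H4, described above as a scaffold of the lysyl hydroxylation complex, is among the 4, and nothing is read from this count about prolyl 3-hydroxylation. The procollagen C-proteinase enhancer PCOLCE2 (-0.96, adjusted p = 0.00183) and TLL1 (-1.15, adjusted p = 0.0336) were lower too. Higher in KO were ADAMTS2 (1.52, adjusted p = 4.12e-04), MIA3 (1.001, adjusted p = 2.10e-04), PXDNL (1.08, adjusted p = 0.0345) and ADAMTS3 (0.27, adjusted p = 0.0188). P3H2, TLL1 and PXDNL were no longer called with DESeq2 or in most omissions of 1 library (4, 4 and 5 of 6), and ADAMTS3 in 3 of 6. Their values over the omissions ran from -0.26 to -0.17, -1.53 to -0.90, 0.74 to 1.27 and 0.24 to 0.30. The 11 calls became 7 without KO replicate 1 or without PT2385 replicate 2.

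**Figure D4:**
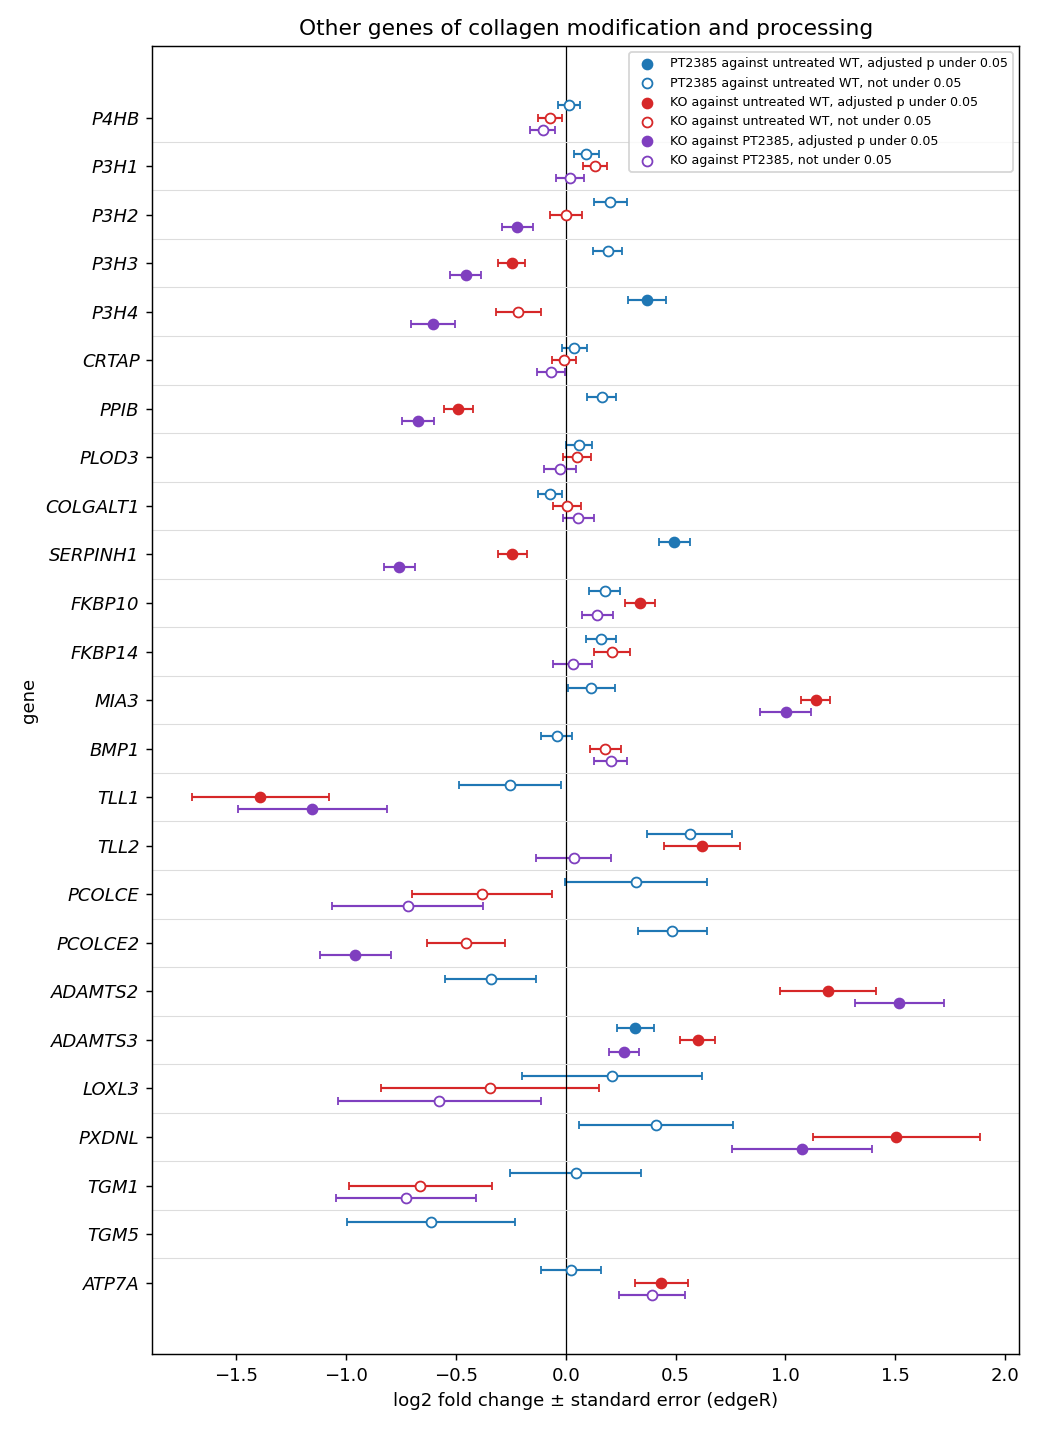
Log2 fold change with standard error of the other collagen-modification genes tested, by role, for the 3 comparisons of 3 against 3 libraries. Filled symbols mark adjusted p under 0.05 by edgeR. With PT2385 the filled symbols are SERPINH1 at 0.49, P3H4 at 0.37 and ADAMTS3 at 0.32. In KO against control MIA3, ADAMTS2 and PXDNL lie above 1 and TLL1 below -1.

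Likeness of pattern was measured for the 3 members that varied most between groups, as the root mean square difference of log2 CPM over the 9 libraries after each gene was centred on its own mean, among 15551 genes. PXDN was nearest to PTCHD4 (0.21), KCNIP3 (0.23) and BAIAP2L2 (0.29). KCNIP3, for example, was at 17.8 ± 1.68 CPM in control, 9.67 ± 0.956 CPM in PT2385 and 73.1 ± 8.70 CPM in KO (mean ± SD, n = 3). BAIAP2L2 rests on 114 counts over all 9 libraries. LOXL2 was nearest to ENSG00000279476, KCNMA1 and CMIP, each at 0.09, with KCNMA1 at 359 ± 9.46, 198 ± 5.21 and 148 ± 14.3 CPM in the same order. ENSG00000279476 lies inside CMIP on the same strand, so these 2 may share transcripts. LOXL1 was nearest to MCAM, KIF7 and TLN2, each at 0.13, and TLN2 was at 144 ± 3.49, 159.5 ± 4.83 and 79.0 ± 1.51 CPM. These are the closest of many genes over few libraries, and the measure says nothing of shared control.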

How the data were processed

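RNA of the 9 libraries was sequenced. Per the study's methods, FastQC served for quality control and cutadapt for trimming, STAR mapped the reads to GRCh38, and featureCounts assigned them to genes. The authors deposited raw counts per gene without normalization. Tool versions, annotation release and strand setting are not given in the sources used here. All 9 count columns matched a sample, and 0 were left unmapped. Symbols and positions (58207 of 58735 genes) came from GENCODE v44 on GRCh38.

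Each pair of groups was fitted on its own, over all genes, with edgeR 4.0.16 in R 4.3.3: TMM factors, filterByExpr (minimum 10 counts), its quasi-likelihood test, and p-values adjusted by Benjamini-Hochberg, calling adjusted p under 0.05. CPM values are counts divided by TMM-scaled library size. Floors (3 counts) cover counting error only, whereas SE values also include the spread between libraries and SD values are the spread over the 3 libraries of a group. The labels do not say that replicates came from separate cultures, so p-values measure only the spread between these libraries, and an exact permutation test of 3 against 3 could not go below 0.1. The tests were checked on simulated counts, with planted changes larger than most of those described here, in well-counted genes and with libraries drawn independently. The check does not cover smaller changes, genes with few counts or libraries that deviate together.

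Members were chosen with earlier results of these data known. The 33 other genes were listed by textbook roles rather than by values, but also after those earlier results were known. Named from the 33 other genes were all those called with PT2385 or in KO against PT2385 and, in KO against control, the 10 with the smallest adjusted p. P4HB, PLOD3, COLGALT1 and TLL2 were named outside this rule, after their values were seen. Likeness was computed on log2 CPM with a prior count of 2. Alternatives were DESeq2 1.42.0, RLE or library-size scaling, no filter, a stricter filter (10 counts or more in each library), a joint model of the 9 libraries, a block for replicate number, and omission of each library. Level per canonical transcript was added after the data were seen. Protein sequences were not used here.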

Additional observations from a re-analysis of the deposited data

How the results depend on the processing

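Over all the alternatives run, the directions of the called members held, as did the calls of P4HA1, PLOD2, LOXL2 and TGM2 with PT2385, of P4HA1, P4HA2, PLOD2, LOXL1, LOXL2 and PXDN in KO, and of LOXL1, LOXL2, PXDN and TGM2 in KO against PT2385. Changes of sign were seen in values that were not called. LOX with PT2385 ran from -0.015 to 0.30 over the omissions of 1 library (-0.0019 without control replicate 1, -0.0081 without control replicate 3 and -0.015 without PT2385 replicate 1), and PLOD2 in KO against PT2385 from -0.057 to 0.16, the negative value without PT2385 replicate 3. With 1 library left out, the members called numbered 4 to 7 with PT2385, 6 to 7 in KO and 4 to 5 in KO against PT2385. The other collagen-modification genes called numbered 1 to 6, 8 to 12 and 7 to 11. The single call with PT2385 arose without control replicate 1, control replicate 2 or PT2385 replicate 2, and the 6 without PT2385 replicate 3. Depth limits the genes with few counts, such as TLL1 with 9 to 38 per library and PXDNL with 8 to 53.

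Replicate numbers are shared between the groups, but the labels do not say what they mark. Deviations from the group means correlated from 0.0327 to 0.419 between libraries of the same number (9 pairs) and from -0.410 to 0.25 between different numbers (18 pairs), over 11487 genes. Pairs of number 1 ran from 0.279 to 0.404 and those of number 3 from 0.374 to 0.419, all above the highest value between different numbers. Pairs of number 2 ran only from 0.0327 to 0.104. Libraries of numbers 1 and 3 thus deviated together within their number, which the main fits leave out. The replicate block is given as an alternative. With the replicate block, calls over all genes went from 1162 to 2305 with PT2385, from 4566 to 5501 in KO and from 2897 to 3783 in KO against PT2385. Calls among the other collagen-modification genes went from 3 to 7 with PT2385, from 11 to 12 in KO and from 11 to 12 in KO against PT2385. LOX in KO was called under the block (log2 fold change 0.57).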
